A study of Danio rerio with 6 samples.

Results

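Genes that make, lengthen, desaturate and activate fatty acids were compared between MZ *tafazzin* mutant and wild-type zebrafish larvae. Members were rows whose symbol begins with *elovl* or *acsl* followed by a digit, or equals 1 of 19 listed symbols, and 38 of the 27335 genes in the table were members. The patterns took 12 *elovl* and 9 *acsl* genes, and 17 of the listed symbols matched. *oxsm* and *hacd4* matched no row and were not analysed here. Of the 38 members, 37 had a mean of at least 0.5 FPKM and were tested. *scd* did not reach that level.

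Fatty acids are built in the cytosol from acetyl-CoA, which acetyl-CoA carboxylase turns into malonyl-CoA and fatty acid synthase joins into palmitate. In the endoplasmic reticulum a repeating cycle of condensation, reduction, dehydration and a last reduction lengthens the chain, and desaturases insert double bonds. Acyl-CoA synthetases activate fatty acids for use in phospholipids, triglycerides or oxidation, and a separate mitochondrial pathway makes the precursor of lipoic acid. Tafazzin moves acyl chains onto monolysocardiolipin to form mature cardiolipin, a phospholipid of the inner mitochondrial membrane.

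RNA came from whole larvae at 5 days post-fertilization (dpf), in 3 pools of 25 larvae per genotype with 1 library per pool. The mutants carry the *taz* E3 allele, a single CRISPR/Cas9 frameshift allele in exon 3, and are maternal zygotic (MZ), so neither the mother nor the embryo supplied the normal transcript. The controls were wild type at *tafazzin*. One passage of the study places the larvae in the same clutch and another has mutants and wild types bred from their own incrosses, so the effects of parents and of genotype cannot be told apart. Levels are FPKM (fragments counted per exon length and per library size), which allow levels to be set against each other between genes. The pools of each genotype are numbered 0, 1 and 2, as in the table. Because each value is a mixture of all larval tissues, fewer cells of a type and less RNA per cell cannot be told apart.

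FPKM summed to between 501725 and 540974 per pool, and the relative number of fragments ranged from 0.84 to 1.29 times that of mutant pool 0. Absolute depth is unknown. *tafazzin* itself, listed as *taz*, had wild-type values of 12.3, 12 and 8.53 FPKM and mutant values of 6.09, 4.58 and 3.84 FPKM (44.1% of wild type, limma adjusted p = 0.0468). Wild-type pool 2 stood apart from the other wild-type pools on the first principal component, at -10.5 against -29.0 and -32.0, with the mutants at 16.4 to 35.2. Values without this pool are therefore also given for some genes. On that component it was the wild-type pool nearest the mutants, so leaving it out tends to enlarge the differences between genotypes. Over all genes, 422 had a limma adjusted p under 0.05 without it, against 199 with all pools and 15 to 55 without any other single pool. Summed defining markers of hepatocytes, enterocytes, neurons, myelinating glia, photoreceptors, heart and skeletal muscle had overlapping ranges between genotypes. Those of epidermis (5 tested, 5070 to 6752 FPKM in wild type and 3209 to 4409 FPKM in mutants) and exocrine pancreas (4 tested, 3738 to 4140 FPKM and 3021 to 3250 FPKM) did not overlap and were lower in the mutants. Within the hepatocyte list the 9 markers went both ways. At a limma unadjusted p under 0.05, 3 (*fga*, *fgb* and *fgg*) were higher and 2 (*serpina1* and *ttr*) were lower, where 9.88% and 6.4% of all genes were. By the test across all genes, 1 marker each of epidermis (*cyt1*), exocrine pancreas (*amy2a*) and skeletal muscle (*acta1a*) was lower, and none of the other 6 marker lists had a member that passed. The *cyt1* and *acta1a* calls held without wild-type pool 2 and were lost without any other pool (limma adjusted p up to 0.149 and 0.131), and the *amy2a* call was lost whichever pool was left out (0.0569 to 0.133).

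A gene is said to have risen or fallen where limma's moderated test on log2(FPKM + 1) gave a Benjamini-Hochberg adjusted p under 0.05 over all 21843 genes tested. By this test 1 of the 37 members rose, where 0.696% of all genes did, and none fell, where 0.215% did. At an unadjusted p under 0.05, 13 members (35.1%) were higher in the mutants, where 9.88% of all genes were, and 3 (8.11%) were lower, where 6.4% of all genes were. The 3 pools of one genotype lay entirely above those of the other for 17 members, of which 14 (37.8%) were higher in the mutants and 3 (8.11%) lower. Over all genes these shares were 11.9% and 10.5%. The median log2 fold change of the members was 0.17, with 23 (62.2%) above 0 and 14 below. Over all genes the median was 0.002 and 50.4% were above 0. Without wild-type pool 2, 2 members rose, where 1.46% of all genes did, 13 were higher by the unadjusted p, where 12% of all genes were, and 2 were lower, where 7.17% were.

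**Figure D1:**
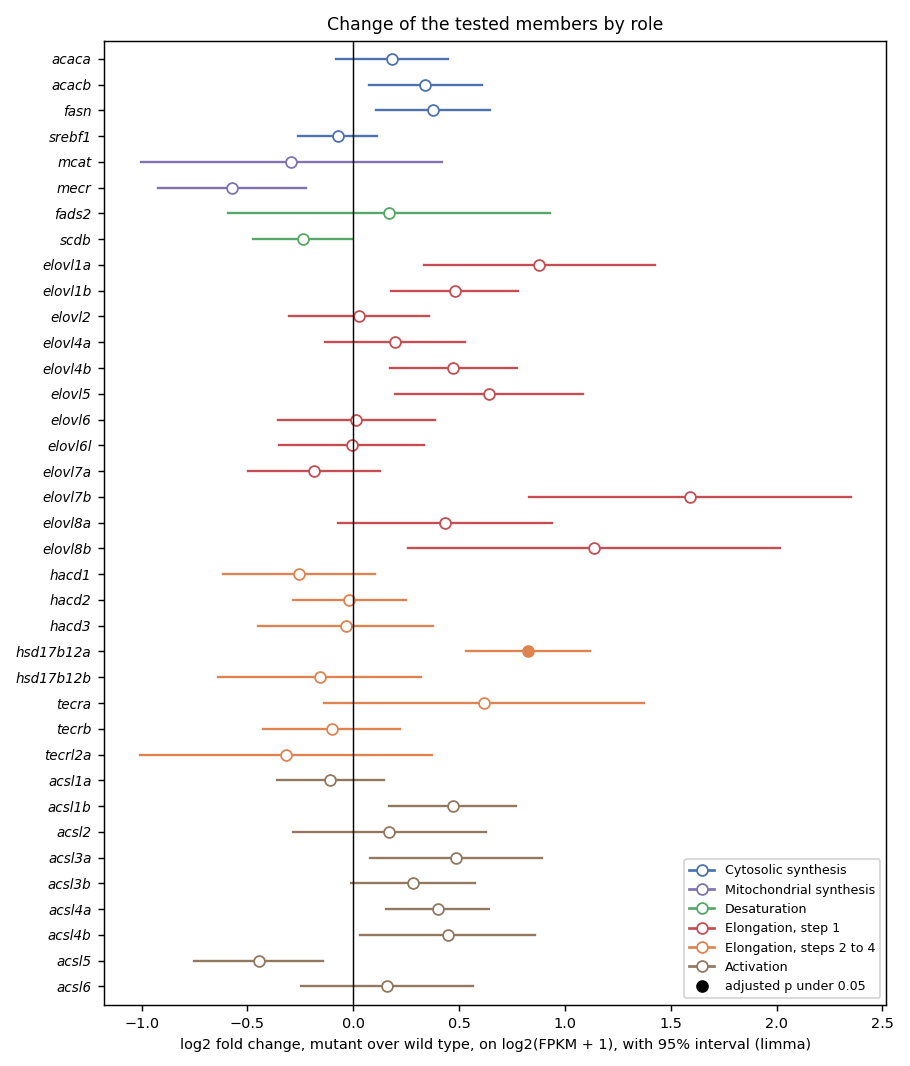
Log2 fold change of the 37 tested members, mutant over wild type, on the log2(FPKM + 1) scale, with the 95% interval from limma. Colours mark the roles and the filled point is the member with an adjusted p under 0.05. The *elovl* genes spread from -0.19 to 1.59, and *hsd17b12a* is the filled point at 0.83.

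The member that rose was *hsd17b12a* (chromosome 25, 30196055 to 30230559, GRCz11). Its mammalian counterpart is the 3-ketoacyl-CoA reductase that carries out the second step of the elongation cycle. Wild-type pools 0, 1 and 2 had 19.3, 17.8 and 24.6 FPKM, and mutant pools 0, 1 and 2 had 37.1, 34.0 and 40.0 FPKM. Every mutant pool lay above every wild-type pool, and wild-type pool 2 was the nearest to the mutants. The mean went from 20.6 ± 3.59 to 37.0 ± 2.98 FPKM (SD, n = 3 pools), 1.8-fold, with a log2 fold change of 0.83 (SE 0.13, 95% interval 0.53 to 1.12, limma adjusted p = 0.0306). Leaving out wild-type pool 2 gave 0.96 (adjusted p = 0.0133). Leaving out any other single pool ended the call, with adjusted p from 0.0781 without mutant pool 1 to 0.134 without wild-type pool 0, while the log2 fold change was then 0.73 to 0.88.

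Its paralog *hsd17b12b* (chromosome 7, 50228015 to 50272871) was expressed at a lower level and the genotypes overlapped. It was at 7.36, 8.36 and 12.8 FPKM in wild type and 7.29, 10.5 and 7.13 FPKM in the mutants, a log2 fold change of -0.16 (95% interval -0.64 to 0.32, limma adjusted p = 0.761). *hsd17b12a* accounted for 72.4%, 68.0% and 65.8% of the FPKM of the pair in the wild-type pools and for 83.6%, 76.4% and 84.9% in the mutants. The shares did not overlap. The log2 ratio of the paralogs (each FPKM + 1) differed by 0.99 between genotypes, with an exact permutation p of 0.1, 2-sided, the smallest that 3 against 3 pools allow, and an adjusted p of 0.22 over the 11 pairs compared.

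The other enzymes after the condensing step overlapped between genotypes. *tecrb*, the trans-2-enoyl-CoA reductase gene with the higher level, was at 40.5, 42.6 and 55.2 FPKM in wild type and 47.8, 44.5 and 36.0 FPKM in the mutants (log2 fold change -0.10, 95% interval -0.43 to 0.22, limma adjusted p = 0.774). The highest dehydratase gene, *hacd2*, was at 37.0, 42.9 and 44.7 FPKM in wild type and 42.9, 45.1 and 35.3 FPKM in the mutants (-0.02, -0.28 to 0.25, limma adjusted p = 0.959). Wild-type and mutant pools were interspersed for both. Of the 8 genes of these steps 6 had a log2 fold change below 0, and the values of *hsd17b12b*, *hacd1*, *hacd3*, *tecra* and *tecrl2a* ranged from -0.32 for *tecrl2a* to 0.62 for *tecra*, with limma adjusted p from 0.4 to 0.946. *hacd3* and *tecrb* each share their locus entry with another gene, so their values may include that gene's reads.

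The condensing enzymes, the *elovl* genes, carry out the first and rate-limiting step of the cycle and decide which chains are lengthened. None of the 12 passed the adjusted test, but 6 were higher in the mutants at an unadjusted p under 0.05, where 9.88% of all genes were, and none lower. The genotypes did not overlap for 7, all higher in the mutants, as for 11.9% of all genes. Their median log2 fold change was 0.45, with 10 above 0. The 8 genes of the later steps had a median of -0.07, with 1 higher at an unadjusted p under 0.05.

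*elovl7b* had the largest log2 fold change of the members tested on the log2(FPKM + 1) scale. With a pseudocount of 0.1 the value of *elovl8b*, which holds a 0, was larger (2.32 against 1.80). Elovl7 lengthens saturated and monounsaturated long-chain acyl-CoAs in mammals. The gene lies on an unplaced scaffold (3100 to 5808, GRCz11), and it was at 4.61, 2.29 and 8.87 FPKM in wild type and 15.0, 14.6 and 18.9 FPKM in the mutants. The wild-type pools spread over a wide range, with pool 2 the highest, and all were below the mutants. The mean went from 5.26 ± 3.33 to 16.2 ± 2.4 FPKM (SD, n = 3 pools), 3.08-fold, with a log2 fold change of 1.59 (SE 0.33, 95% interval 0.83 to 2.35, limma adjusted p = 0.0673). Without wild-type pool 2, the wild-type pool nearest the mutants, the log2 fold change was 1.99 (adjusted p = 0.0176), which passes the threshold. Leaving out any other single pool did not give a pass, with limma adjusted p from 0.13 to 0.233. The log2 fold change then ranged from 1.2 without wild-type pool 1 to 1.66 without mutant pool 1.

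Its paralog *elovl7a*, on chromosome 8, was at 19.8, 17.1 and 24.3 FPKM in wild type and 16.4, 19.7 and 17.1 FPKM in the mutants (log2 fold change -0.19, 95% interval -0.50 to 0.13, limma adjusted p = 0.544). The genotypes overlapped. *elovl7b* made up 18.9%, 11.8% and 26.7% of the FPKM of the pair in wild type and 47.8%, 42.6% and 52.6% in the mutants. In wild type *elovl7a* was the higher paralog in every pool, and in the mutants the levels were close. The log2 ratio differed by 1.78 (exact permutation p = 0.1, adjusted p = 0.22 over the 11 pairs).

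*elovl1a* and *elovl1b*, whose mammalian counterpart lengthens saturated very long chains, were both higher in the mutants without overlap. *elovl1b*, the *elovl* gene with the highest level, was at 28.9, 25.0 and 28.0 FPKM in wild type and 40.2, 31.4 and 44.6 FPKM in the mutants, 1.42-fold by mean (log2 fold change 0.48, SE 0.13, limma adjusted p = 0.126). *elovl1a* was at 2.83, 4.92 and 3.87 FPKM in wild type and 7.74, 5.6 and 10.9 FPKM in the mutants, 2.09-fold (0.88, SE 0.24, limma adjusted p = 0.125). Mutant pool 1 was the lowest mutant pool for both and lay nearest the wild type. The *elovl1a* entry spans a locus shared with another gene.

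*elovl5*, which lengthens polyunsaturated fatty acids, was at 6.25, 6.05 and 7.91 FPKM in wild type and 8.41, 10.5 and 14.9 FPKM in the mutants. Mutant pool 0 lay only just above wild-type pool 2, and the mean went from 6.74 ± 1.02 to 11.3 ± 3.29 FPKM (SD, n = 3 pools; log2 fold change 0.64, SE 0.20, limma adjusted p = 0.16). *elovl8b* was low, at 1.04 and 2.07 FPKM in wild-type pools 0 and 2 and listed at 0 in pool 1, and at 3.37, 2.07 and 3.96 FPKM in the mutants. The highest wild-type and the lowest mutant pool lay side by side (log2 fold change 1.14, 95% interval 0.26 to 2.01, limma adjusted p = 0.199). Without wild-type pool 1 the log2 fold change was 0.70.

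*elovl4b*, whose mammalian counterpart makes the very long chains of retina and skin, was at 10.5, 12.5 and 14.1 FPKM in wild type and 15.4, 18.5 and 18.5 FPKM in the mutants. The genotypes did not overlap, and wild-type pool 2 was again the nearest to the mutants (log2 fold change 0.47, SE 0.13, limma adjusted p = 0.132). The wild-type pools rose from pool 0 to pool 2, and this order was not particular to *elovl4b*. Many other members had it, among them *fasn*, *acaca*, *acacb*, *fads2*, *elovl2*, *hacd2*, *hacd3*, *hsd17b12b*, *tecrb*, *acsl1b*, *acsl3b*, *acsl4a* and *acsl6*. The share of all genes with this order was not counted, so it is not shown to be a trait of the members. The wild-type pools came in the same order in the sum of 8 photoreceptor markers. The enterocyte (485, 486 and 577 FPKM) and neuron (504, 556 and 557 FPKM) sums had this order too, unlike the other marker sums. The photoreceptor sum was 2663, 3394 and 4649 FPKM in wild-type pools 0, 1 and 2 and 4168 to 4798 FPKM in the mutants. The genotypes overlapped in this sum. At an unadjusted p under 0.05, 3 of the 8 photoreceptor markers were higher, where 9.88% of all genes were. Of these *rho* passed without wild-type pool 2 (limma adjusted p = 0.0478, and 0.247 with all pools). Without any other single pool its adjusted p was 0.348 to 0.516. The sum of 5 epidermis markers was lower in the mutants (5070 to 6752 FPKM in wild type and 3209 to 4409 FPKM in mutants). The part of any of these marker sums in the *elovl4b* values was not tested. *elovl4b* is on chromosome 23 (40410768 to 40438581), which also carries *tafazzin* (4915966 to 4925666), and whether linkage bears on its level was not tested.

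The other 5 *elovl* genes, *elovl2*, *elovl4a*, *elovl6*, *elovl6l* and *elovl8a*, had log2 fold changes from -0.01 to 0.43 with limma adjusted p from 0.376 to 0.986. Only *elovl8a* of these did not overlap, at a low level. It was at 0.709, 0.673 and 0.976 FPKM in wild type and 2.04, 1.13 and 1.14 FPKM in the mutants (0.43, 95% interval -0.07 to 0.94). *elovl2* lengthens the longest polyunsaturated chains on the way to docosahexaenoic acid. It was at 16.1, 16.9 and 22.9 FPKM in wild type and 18.7, 21.1 and 16.9 FPKM in the mutants, with the genotypes interspersed. *elovl6*, which lengthens palmitate, the product of fatty acid synthase, had a log2 fold change of 0.01 (95% interval -0.36 to 0.38).

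**Figure D2:**
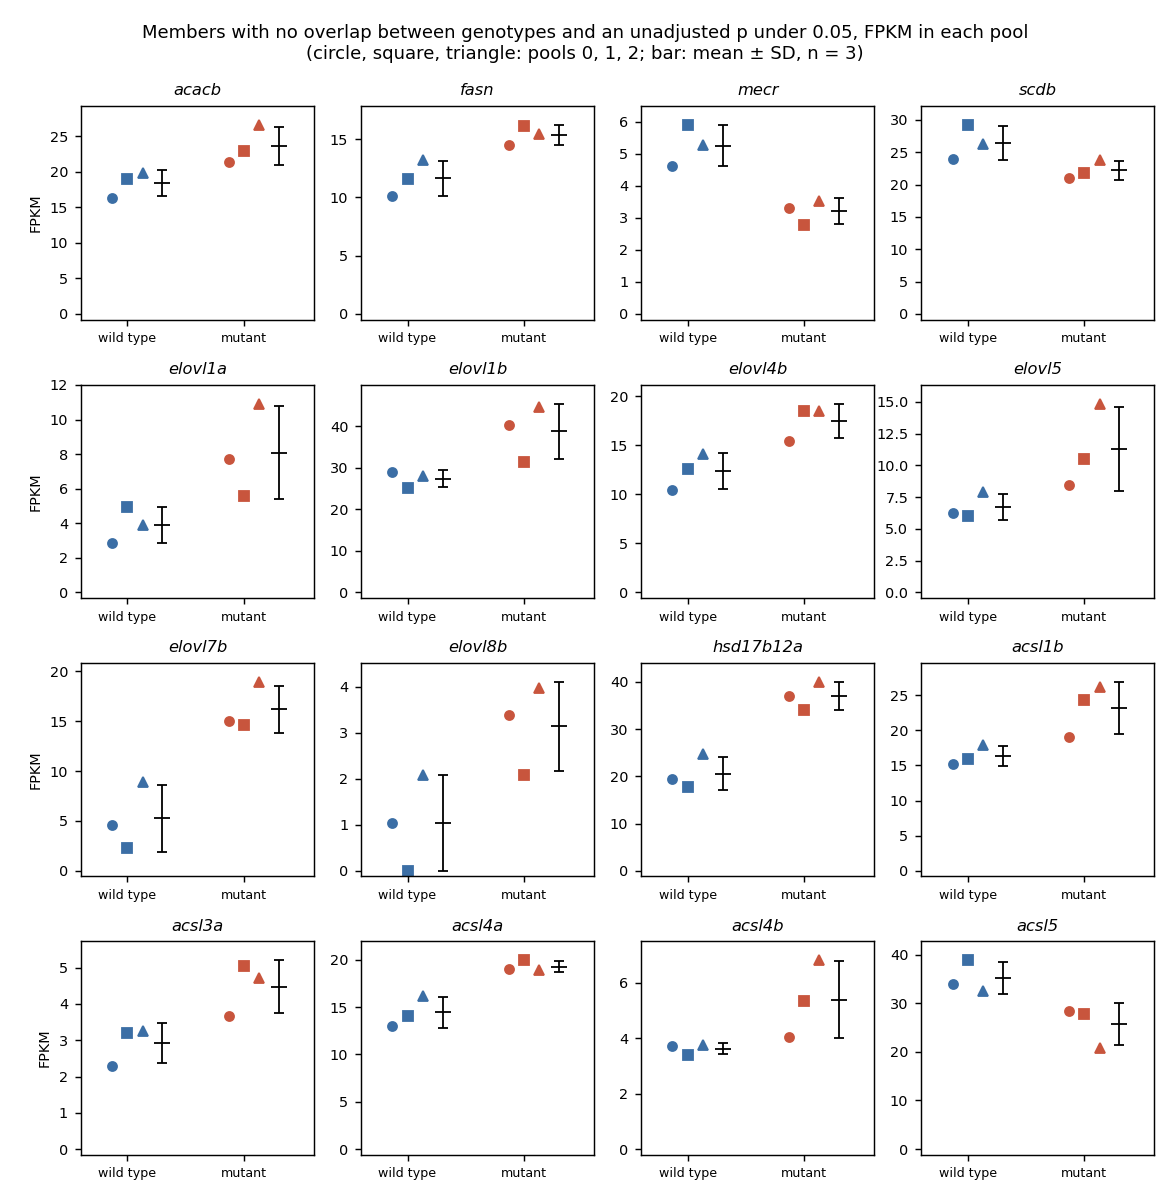
FPKM in each pool for the 16 members with an unadjusted p under 0.05, all without overlap between genotypes. Circles, squares and triangles are pools 0, 1 and 2, and the bar is the mean ± SD (n = 3). Mutants are higher in 13 panels and lower in *mecr*, *scdb* and *acsl5*.

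FPKM were also summed over genes of each step. These sums do not cover whole steps, since *tecrl2a* was left out and *hacd4* had no row. The 12 *elovl* genes together came to 126, 121 and 149 FPKM in wild type and 163, 167 and 185 FPKM in the mutants. This sum did not overlap between genotypes, and it did not overlap without *elovl1b* either, although the gap was then small (121 FPKM in wild-type pool 2 and 122 FPKM in mutant pool 0). The *hsd17b12* pair came to 26.7, 26.2 and 37.4 FPKM in wild type and 44.4, 44.5 and 47.1 FPKM in the mutants. The dehydratases summed to 84.9 ± 11.1 FPKM in wild type and 78.4 ± 10.5 FPKM in the mutants, and the *tecra* and *tecrb* pair to 47.2 ± 7.35 and 45.0 ± 5.46 FPKM (SD, n = 3 pools), both with overlap. These sums are descriptions and were not tested.

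**Figure D3:**
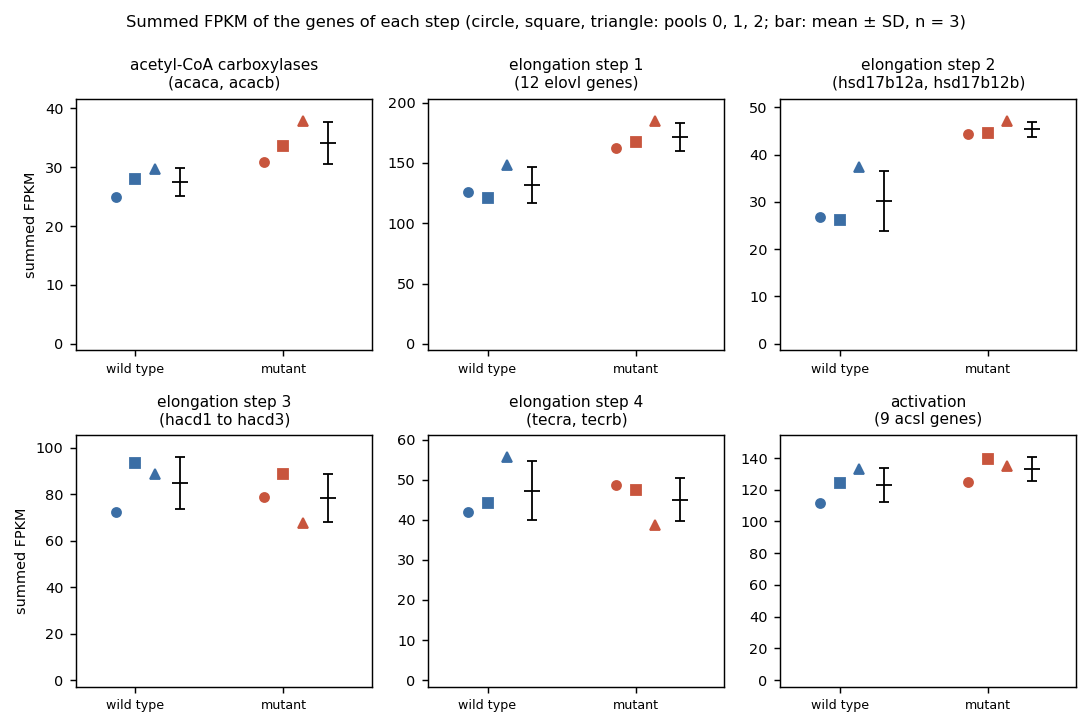
Summed FPKM per pool of genes of each step, without *tecrl2a*, with the mean ± SD (n = 3). The carboxylases and the first and second elongation steps are higher in every mutant pool, whereas the dehydratases, the *tecr* pair and the *acsl* genes overlap.

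In the cytosolic synthesis of palmitate none of the 4 genes passed the adjusted test, and *acacb* and *fasn* were higher in the mutants without overlap. *fasn* (chromosome 12, 33394916 to 33450514), fatty acid synthase, was at 10.1, 11.6 and 13.2 FPKM in wild type and 14.5, 16.2 and 15.4 FPKM in the mutants. The mean went from 11.6 ± 1.51 to 15.4 ± 0.838 FPKM (SD, n = 3 pools), 1.32-fold, with a log2 fold change of 0.38 (SE 0.12, 95% interval 0.11 to 0.65, limma adjusted p = 0.167). Wild-type pool 2 was again nearest the mutants, and without it the value was 0.46 (adjusted p = 0.0922). Leaving out any other single pool gave 0.29 to 0.42, with limma adjusted p from 0.252 to 0.385.

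Acetyl-CoA carboxylase is encoded by *acaca*, whose mammalian product is cytosolic, and *acacb*, whose mammalian product sits on mitochondria and makes malonyl-CoA that restrains fatty acid uptake there. *acacb* was at 16.3, 19.1 and 19.9 FPKM in wild type and 21.4, 22.9 and 26.6 FPKM in the mutants (log2 fold change 0.34, SE 0.12, limma adjusted p = 0.201). *acaca* was at 8.59, 8.88 and 9.77 FPKM in wild type and 9.42, 10.7 and 11.3 FPKM in the mutants (0.18, SE 0.12, limma adjusted p = 0.481). The first did not overlap, and the second did by 1 mutant pool. The log2 ratio of *acacb* to *acaca* differed by 0.16 and that of *fasn* to *acaca* by 0.20, each with an exact permutation p of 0.1 and an adjusted p of 0.22 over the 11 pairs. For *acacb* and *acaca* the separation of the genotypes rests on the added 1 FPKM, since the *acacb* share of the pair met at 68.2% in pool 1 of both genotypes and overlapped slightly.

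*srebf1*, the transcription factor that drives this pathway in mammals, was at 39.6, 38.3 and 40.9 FPKM in wild type and 38.9, 35.5 and 38.4 FPKM in the mutants. The genotypes overlapped and the pools were close together (94.9% of wild type, log2 fold change -0.07, 95% interval -0.26 to 0.11, limma adjusted p = 0.702). These are transcript levels, and the cleavage that activates the protein was not measured.

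Neither of the desaturase genes tested passed the adjusted test. *scdb*, a stearoyl-CoA desaturase that makes monounsaturated fatty acids, was at 23.9, 29.2 and 26.2 FPKM in wild type and 21.0, 21.8 and 23.8 FPKM in the mutants. The highest mutant and the lowest wild-type pool almost met (84% of wild type, log2 fold change -0.24, SE 0.10, limma adjusted p = 0.299). *fads2*, a desaturase of polyunsaturated fatty acid synthesis, was at 7.41, 9.42 and 18.5 FPKM in wild type and 8.48, 18.7 and 12.1 FPKM in the mutants, with a spread within each genotype larger than the difference (0.17, 95% interval -0.59 to 0.93, limma adjusted p = 0.845). *scd* was at 0.289, 0.736 and 0.612 FPKM in wild type and 0.0892, 0.848 and 0.417 FPKM in the mutants. It was below the filter, and in the fit with no filter its log2 fold change was -0.11 (SE 0.22, limma adjusted p = 0.848).

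Both mitochondrial synthesis genes had lower means in the mutants. *mecr* (chromosome 16, 4695086 to 4707671), the enoyl reductase of the last step of the mitochondrial cycle, was at 4.62, 5.90 and 5.27 FPKM in wild type and 3.32, 2.77 and 3.54 FPKM in the mutants. No pools overlapped, and the mean was 5.26 ± 0.637 FPKM in wild type and 3.21 ± 0.398 FPKM in the mutants (SD, n = 3 pools), 61% of wild type, the most negative log2 fold change of the members tested at -0.57 (SE 0.15, 95% interval -0.92 to -0.22, limma adjusted p = 0.122). *mcat*, the malonyl transferase that starts the cycle, was at 3.98, 1.16 and 4.01 FPKM in wild type and 2.08, 2.18 and 1.99 FPKM in the mutants. Wild-type pool 1 lay below all mutant pools, and the interval spanned 0 (-0.29, 95% interval -1.01 to 0.42, limma adjusted p = 0.69). The log2 fold change was -0.70 without wild-type pool 1 and -0.09 without wild-type pool 0 or 2.

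Of the 9 *acsl* genes, which encode long-chain acyl-CoA synthetases, none passed the adjusted test. At an unadjusted p under 0.05, 4 were higher in the mutants (*acsl1b*, *acsl3a*, *acsl4a* and *acsl4b*) and 1 was lower (*acsl5*), all 5 without overlap. Over all genes 9.88% were higher and 6.4% lower by this p, and 11.9% and 10.5% had no overlap. The median log2 fold change of the *acsl* genes was 0.28. *acsl4a*, whose mammalian counterpart prefers arachidonic acid, was at 13.0, 14.1 and 16.2 FPKM in wild type and 19.0, 19.9 and 18.9 FPKM in the mutants (0.40, SE 0.11, limma adjusted p = 0.121). The mutant pools lay close together, above all of the wild type. *acsl4b* was lower in level, at 3.72, 3.40 and 3.74 FPKM in wild type and 4.03, 5.33 and 6.81 FPKM in the mutants (0.45, SE 0.18, limma adjusted p = 0.27).

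*acsl1b*, a copy of the synthetase abundant in fat, liver and heart of mammals, was at 15.1, 16 and 17.9 FPKM in wild type and 19.0, 24.3 and 26.2 FPKM in the mutants, 1.42-fold by mean (log2 fold change 0.47, SE 0.13, limma adjusted p = 0.134). Its share of the *acsl1* pair was 53.3 ± 1.45% in wild type and 63.4 ± 4.39% in the mutants (SD, n = 3 pools), without overlap, and the log2 ratio differed by 0.58 (exact permutation p = 0.1, adjusted p = 0.22 over the 11 pairs). *acsl3a*, whose mammalian counterpart acts at lipid droplets, was at 2.28, 3.21 and 3.26 FPKM in wild type and 3.67, 5.05 and 4.73 FPKM in the mutants (0.49, SE 0.18, limma adjusted p = 0.228). Both were higher in every mutant pool, and the *acsl3a* and *acsl4a* entries share their loci with other genes.

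*acsl5* was the only *acsl* gene lower in the mutants at an unadjusted p under 0.05, and it had the highest level of the 9. In mammals it is prominent in intestine. It was at 34.0, 38.8 and 32.6 FPKM in wild type and 28.5, 27.8 and 20.7 FPKM in the mutants, with no overlap and mutant pool 2 the lowest. The mean went from 35.2 ± 3.26 to 25.7 ± 4.3 FPKM (SD, n = 3 pools), 73.1% of wild type, with a log2 fold change of -0.45 (SE 0.13, 95% interval -0.75 to -0.15, limma adjusted p = 0.15). Beside it, 7 enterocyte markers summed to 485 to 577 FPKM in wild type and 442 to 508 FPKM in the mutants. Of these markers 1 (*apoa4a*) was higher and 2 (*chia.1* and *cdx1b*) were lower at an unadjusted p under 0.05, and none passed. By this p 9.88% of all genes were higher and 6.4% lower. Their part in the *acsl5* values was not tested.

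The other 4 *acsl* genes (*acsl1a*, *acsl2*, *acsl3b* and *acsl6*) had log2 fold changes from -0.11 to 0.28, with limma adjusted p from 0.323 to 0.724. The 9 genes together summed to 112, 124 and 133 FPKM in wild type and 125, 139 and 135 FPKM in the mutants, which overlapped.

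**Figure D4:**
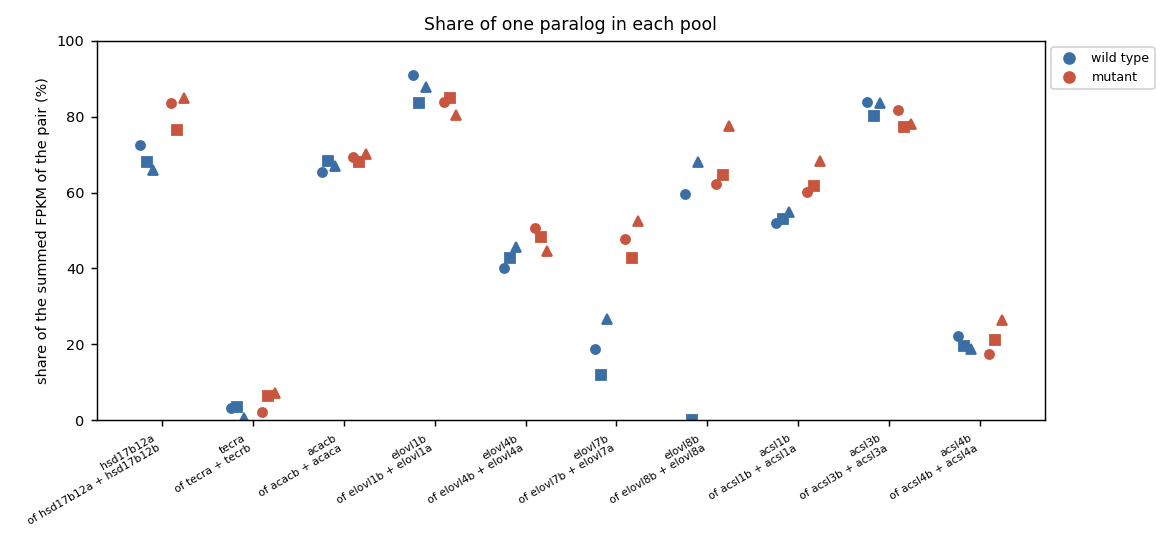
Share of the FPKM of a pair held by 1 paralog in each pool, in percent, for 10 pairs (circle, square and triangle are pools 0, 1 and 2). The mutants lie above the wild type without overlap for *hsd17b12a*, *elovl7b* and *acsl1b*.

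For 6 of the 11 pairs compared the log2 ratio overlapped between genotypes, with exact permutation p from 0.2 to 0.8 and adjusted p from 0.314 to 0.8. The *elovl4*, *elovl1*, *acsl3* and *acsl4* pairs were among them, and the difference of the log2 ratio was -0.40 for *elovl1b* over *elovl1a* and 0.05 for *acsl4b* over *acsl4a*. No pair could reach a p under 0.1 with 3 pools per genotype.

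Members did not move evenly across pools. Of the 37 tested members, 7, 14 and 32 lay above their wild-type mean in wild-type pools 0, 1 and 2, and 22, 28 and 22 in mutant pools 0, 1 and 2. The median difference from the wild-type mean was 0.15 on the log2 scale in wild-type pool 2 and 0.05 in mutant pool 0, so by this measure that wild-type pool lay above a mutant pool. Among the 16 members with an unadjusted p under 0.05, none of which overlap, wild-type pool 2 was the wild-type pool nearest the mutants for 12 (75%). Where genotypes overlap, the pool counted was the wild-type pool furthest in the direction of the change. Counted so, it was wild-type pool 2 for 1876 of the 3555 genes with such a p (52.8%). Among all 37 tested members it was that pool for 20 (54.1%).

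**Figure D5:**
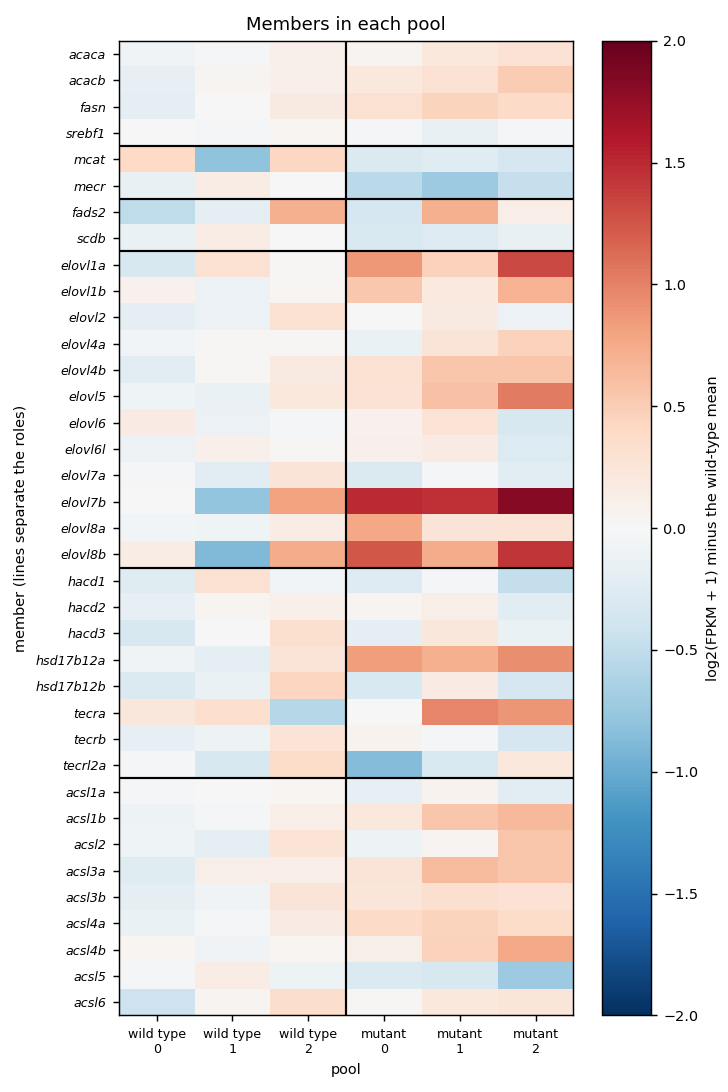
Each tested member in each pool as log2(FPKM + 1) minus its wild-type mean, with lines between the roles in the order of the plot of log2 fold changes. Wild-type pool 2 has 32 of 37 members above the wild-type mean, and the mutant columns are darkest at *elovl7b*.

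Genes around the pathway were taken from 4 further lists, of which 54 of 56 symbols were tested. Of these 1 rose and none fell, and by the unadjusted p 14 were higher and 1 was lower. Over all genes 0.696% rose and 0.215% fell, and 9.88% were higher and 6.4% lower by the unadjusted p, and each list is to be read against these shares. In the list of carbon and NADPH supply 1 of 15 rose and 6 were higher at an unadjusted p under 0.05, with a median log2 fold change of 0.11. These 6 were *pgd*, *me2*, *aclya*, *slc25a1b*, *me1* and *mlycd*. The last encodes malonyl-CoA decarboxylase, which breaks malonyl-CoA down. The gene that rose was *pgd*, the phosphogluconate dehydrogenase that makes NADPH in the pentose phosphate pathway, at 11.9, 14.4 and 15.8 FPKM in wild type and 23.2, 25.2 and 27.1 FPKM in the mutants. The genotypes were far apart (log2 fold change 0.81, SE 0.12, limma adjusted p = 0.0287). The adjusted p was 0.0239 without wild-type pool 2 and between 0.0810 and 0.109 without any other pool, which ended the call.

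The supply gene with the next smallest p was *me2*, a mitochondrial malic enzyme, at 13.5, 22.0 and 23.8 FPKM in wild type and 30.7, 33.5 and 41.1 FPKM in the mutants (log2 fold change 0.83, limma adjusted p = 0.0943). It was followed by *aclya*, the ATP citrate lyase that makes cytosolic acetyl-CoA, at 15.3, 16.4 and 20.4 FPKM and 22.5, 24.6 and 23.0 FPKM (0.42, limma adjusted p = 0.139). Neither overlapped, and both were higher in the mutants. Without wild-type pool 2 *aclya* passed (0.53, limma adjusted p = 0.0478), and without any other pool its adjusted p was 0.239 to 0.344.

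None of the 9 partners of mitochondrial fatty acid synthesis and lipoylation passed the adjusted test, 3 were higher at an unadjusted p under 0.05, and the median log2 fold change was 0.01. *lipt2*, which transfers octanoate to proteins that carry lipoic acid, was at 2.82, 2.59 and 1.71 FPKM in wild type and 5.72, 4.90 and 3.46 FPKM in the mutants (0.75, limma adjusted p = 0.134). *ndufab1a*, a mitochondrial acyl carrier protein that is also a subunit of complex I, was at 39.6, 48.1 and 47.1 FPKM and 52.2, 63.6 and 76.9 FPKM (0.49, limma adjusted p = 0.14). Its paralog *ndufab1b* overlapped between genotypes (0.01, limma adjusted p = 0.956), and 4 of the 9 partners had a log2 fold change below 0. *lipt2* and *ndufab1a* were higher in every mutant pool, whereas *mecr* of the same pathway was lower in every mutant pool.

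Of 20 lipogenic regulators tested none passed and 4 were higher at an unadjusted p under 0.05, with a median log2 fold change of 0.02. *srebf2*, which controls cholesterol synthesis, was at 15.1, 13.5 and 19.0 FPKM in wild type and 22.1, 20.0 and 22.6 FPKM in the mutants (0.43, limma adjusted p = 0.157). *ppargc1b*, a coactivator of lipid and mitochondrial genes in mammals, was at 17.8, 19.6 and 20.0 FPKM and 22.6, 24.3 and 23.0 FPKM (0.27, limma adjusted p = 0.198). Neither overlapped between genotypes, unlike *srebf1*.

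Of 10 other acyl-CoA synthetases tested none passed. By the unadjusted p 1 was higher and 1 was lower, and the median log2 fold change was 0.01. *slc27a1b*, a fatty acid transport protein with synthetase activity, was at 6.54, 5.17 and 8.02 FPKM in wild type and 11.4, 10.3 and 13.0 FPKM in the mutants (0.74, limma adjusted p = 0.0746). *slc27a2a*, of the same family, was at 45.4, 44.6 and 45.2 FPKM and 37.6, 39.1 and 34.3 FPKM (-0.28, limma adjusted p = 0.15). The first was higher and the second lower in every mutant pool. Without wild-type pool 2 *slc27a1b* passed (0.87, limma adjusted p = 0.0426), and without any other pool its adjusted p was 0.141 to 0.251.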

How the data were processed

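RNA-seq libraries came from 3 pools of 25 larvae per genotype. The submitters' processing notes name Trim Galore 0.4.2, STAR 2.5.3, Cufflinks 2.2.1 with Cuffdiff, and the GRCz11 build. The authors deposited FPKM for every gene in every pool. The deposited columns that compare genotypes (fold change, p-value and q-value, from Cuffdiff) were not used, and neither was a second sheet. A column shows its genotype and a number (0, 1 or 2) without naming a labelled sample, so the columns served as unlabelled replicates. The labels do not say that pools had separate parents, so p-values measure the spread between these pools. Identical values were found in at most 0.0603% of genes of 5 FPKM or more for any pair of pools.

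Genes averaging 0.5 FPKM or more (21843) were fitted on log2(FPKM + 1) with limma 3.58.1 in R 4.3.3, using a mean-variance trend, and p-values were adjusted by Benjamini-Hochberg over all of them. Fold changes on this scale understate low genes. Coordinates are 1-based. Paralog pairs were compared by exact permutation of the log2 ratio. The fit was checked on simulated data. Values in every pool were given for members that passed, members with an unadjusted p under 0.05 and no overlap, *srebf1*, *fasn*, *acaca*, *scd* and *fads2*, and the 2 highest of each role. In the 4 pathway lists, genes that passed and otherwise the 2 with the smallest p were named. *hsd17b12b*, *elovl2*, *elovl6*, *elovl8a*, *me2*, *aclya*, *slc25a1b*, *me1*, *mlycd* and *ndufab1b* were added after their values were seen. Members, lists and 9 marker lists were chosen with earlier results of these data known. Alternatives were another pseudocount (0.1), another filter (none, or 5 FPKM), quantile or median scaling, a fit without the trend, a block on the column number, and leaving out each pool. Python 3.11.15, pandas 2.3.3 and matplotlib 3.10.9 were used.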

Additional observations from a re-analysis of the deposited data

How the results depend on the processing

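The number of members that passed was 1, and it was 0 with no filter on low values and 0 without the trend (limma adjusted p of *hsd17b12a* 0.0502 and 0.0908). It was 2 with a filter of 5 FPKM, where *elovl7b* had an adjusted p of 0.0488. Leaving out each pool in turn gave 0 to 2 members, all higher in the mutants, with 2 only without wild-type pool 2. No member passed lower under any alternative. The column numbers were not taken to pair the pools, since the deviations of same-numbered pools correlated at 0.02, 0.00 and 0.05, and with the column number as a replicate block 2 members passed (*hsd17b12a* at 0.0204, *elovl7b* at 0.0368). Of the 23 named members tested, 18 kept their call and direction under every alternative in which they were tested. That was all 13 except for 5 genes below 5 FPKM with 12 (*mcat*, *mecr*, *elovl8b*, *acsl3a* and *acsl4b*). None of the 18 passed in any fit, so the call they kept was that of not passing. The calls of *hsd17b12a* and *elovl7b* changed while their direction held. The other 3 named members, which overlapped between genotypes, changed sign when 1 pool was left out. Their log2 fold changes were then from -0.10 to 0.52 for *fads2*, -0.10 to 0.085 for *hacd2* and -0.19 to 0.032 for *tecrb*. None of the 16 members with an unadjusted p under 0.05 changed sign. Their genotypes do not overlap, so leaving out 1 pool could not have changed it. Of the other members, 10 changed sign under at least 1 alternative. Leaving out 1 pool moved the members higher at an unadjusted p under 0.05 from 13 to between 9 and 14. Those lower went from 3 to between 2 and 4, and the median log2 fold change from 0.17 to between 0.13 and 0.31. Members without overlap went from 17 to between 17 and 21, a count that leaving out a pool cannot lower for any set of genes. The share of all genes without overlap was not counted in these fits, so this range cannot be set against the shares with all pools. By the unadjusted p, shares of all genes with a pool left out are given only for wild-type pool 2. Over all genes 199 passed, and 87 did with no filter, 38 without the trend and 353 with the block. Without wild-type pool 2 the number was 422, and without any other single pool it was 15 to 55. Absolute depth is unknown, so counting error at low FPKM could not be given.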
